A study of Mus musculus with 6 samples.

Results

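The gut lining secretes lectins, enzymes and small binding proteins that keep bacteria away from the epithelium. Expression of 10 such genes was followed on 6 mouse arrays: Reg3a, Reg3b, Reg3g, Reg4, Retnlb, Lypd8, Ang4, Pigr, Mptx1 and Dmbt1, out of 19505 genes with a symbol. Each was found by its gene symbol in the platform annotation and had 1 probe set. The genes were chosen on their values on these arrays, read against each array's background. Their levels and the differences between groups are therefore given as a description, with no p-value. A gene counted as above background on an array where its log2 value was higher than 95% of the negative-control rows there.

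The labels describe all 6 samples as colon of C57BL/6J mice. One group of 3 arrays, titled PBS and labelled as control mice, is called control 1 to 3. The other 3, MBELN 1 to 3, came from mice given exosome-like nanoparticles from mulberry bark by mouth, in a daily volume of 100 µl, with colon taken after 7 days. All 6 RNAs were labelled from 90 ng of total RNA. The labels give no age and do not say whether each array is a separate animal, so the spread between arrays cannot be read as a spread between animals.

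The arrays did not carry the same tissue genes. On control 1, 19 of 20 colonocyte markers were above background, against 0 to 7 on the other arrays, and 10 of 14 goblet cell markers, against 0 to 2. Smooth muscle markers numbered 11 of 12 on control 1 and 8 of 12 on MBELN 1. Control 3 had 12 of 14 neuron and glia markers, MBELN 1 had 12 of 12 cardiomyocyte markers, MBELN 2 had 13 of 15 squamous and 10 of 12 skeletal muscle markers, and MBELN 3 had 15 of 15 hepatocyte markers. On control 2, 0 of 13 housekeeping genes were above background, against 13 of 13 elsewhere. On the 5 arrays other than control 1, markers of the labelled tissue were thus mostly not above background, and they may not hold the tissue or RNA that their labels name. Whether arrays or labels were exchanged was not tested. Each difference between the groups below is also a difference between arrays with these unlike tissue markers, and these cannot be told apart here. Also, in whole tissue, fewer cells of a type and less RNA per cell cannot be told apart.

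**Figure D1:**
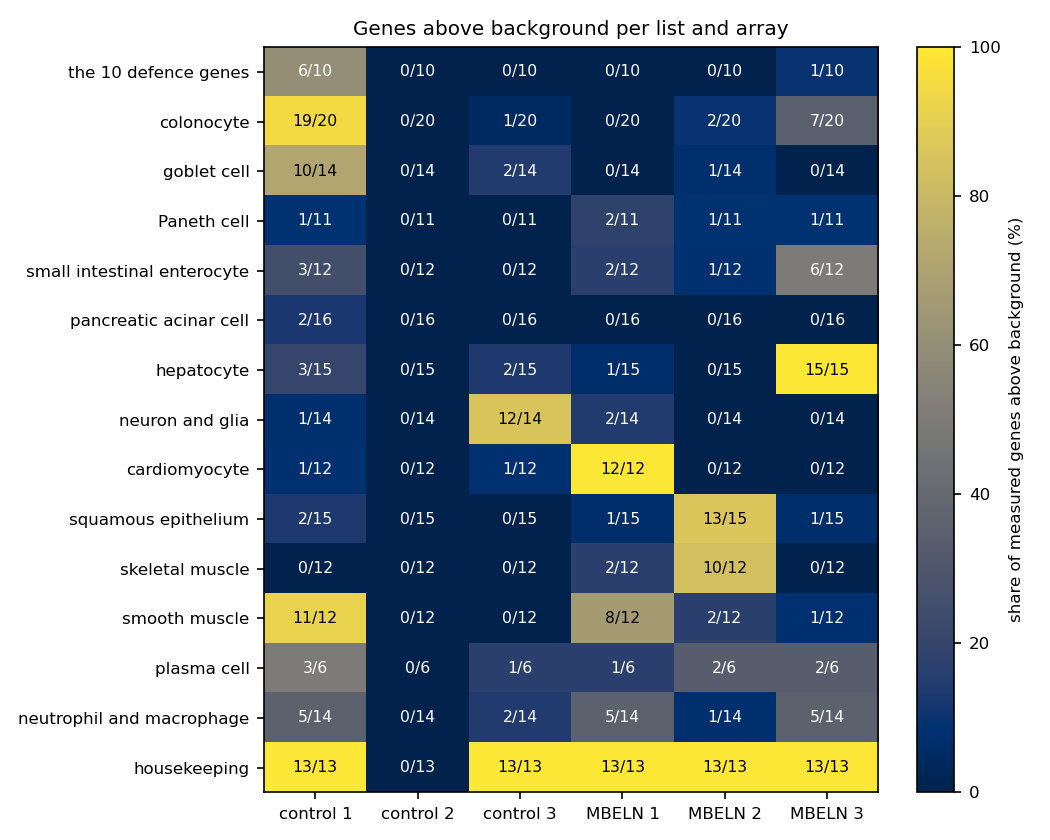
Number of genes above background in each marker list (rows) on each array (columns), coloured by the share of the list's measured genes in percent. The 10 defence genes (6 on control 1, 1 on MBELN 3, 0 elsewhere) are in the top row, above lists for colonocytes (19 of 20 on control 1) and hepatocytes (15 of 15 on MBELN 3).

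The RegIII proteins encoded by Reg3a, Reg3b and Reg3g are secreted C-type lectins, some of which bind and kill bacteria at the intestinal surface. Epithelial cells raise Reg3b and Reg3g strongly when bacterial signals or interleukin 22 reach them, and Retnlb, a resistin-like protein of goblet cells, rises with bacterial colonisation and type 2 cytokines. Pigr, the polymeric immunoglobulin receptor, carries IgA across the epithelium, and in rodents also from blood into bile. Lypd8 is a glycoprotein of colonocytes that holds flagellated bacteria off the surface.

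Proximal promoters of 8 of the 10 genes were found in the RefSeq table of build GRCm38.p6, and Retnlb and Dmbt1 were not matched. Shown are the 250 bases before the gene start, for a pair of lectin genes that stayed below background (Reg3b and Reg3g) and for a pair above background on control 1 alone (Reg4 and Mptx1). Reg3b lies at chr6:78370635-78370884 on the plus strand and Reg3g at chr6:78468875-78469124 on the minus strand. Reg4 lies at chr3:98221906-98222155 and Mptx1 at chr1:174330268-174330517, each on the plus strand. Capitals mark matches to the motifs searched.
Reg3b: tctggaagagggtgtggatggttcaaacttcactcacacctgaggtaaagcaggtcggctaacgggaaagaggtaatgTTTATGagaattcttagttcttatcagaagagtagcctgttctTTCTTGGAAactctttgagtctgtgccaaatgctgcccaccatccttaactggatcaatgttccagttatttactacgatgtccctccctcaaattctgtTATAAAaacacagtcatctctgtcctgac
Reg3g: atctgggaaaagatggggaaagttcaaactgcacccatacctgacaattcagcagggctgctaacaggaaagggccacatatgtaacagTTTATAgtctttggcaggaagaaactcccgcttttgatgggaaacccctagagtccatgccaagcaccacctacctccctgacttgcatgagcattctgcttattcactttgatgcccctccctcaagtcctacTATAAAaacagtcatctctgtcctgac
Reg4: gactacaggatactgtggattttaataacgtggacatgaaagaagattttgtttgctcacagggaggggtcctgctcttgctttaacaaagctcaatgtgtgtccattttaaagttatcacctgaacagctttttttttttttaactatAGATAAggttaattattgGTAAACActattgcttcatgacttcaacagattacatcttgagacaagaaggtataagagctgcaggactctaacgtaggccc
Mptx1: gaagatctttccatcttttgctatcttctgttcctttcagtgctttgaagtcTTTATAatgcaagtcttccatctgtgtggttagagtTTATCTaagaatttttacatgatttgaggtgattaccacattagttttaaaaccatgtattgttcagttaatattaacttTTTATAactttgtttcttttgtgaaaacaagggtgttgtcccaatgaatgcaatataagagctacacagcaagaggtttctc

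Motifs were searched on both strands. They were TATAAA of the TATA box, TTTATG of caudal factors, AGATAA of GATA factors, TTCNNNGAA of STAT factors, CAAAGTCCA of Hnf4 factors and TGTTTAC of forkhead factors. No matches overlapped in these promoters. TATAAA was found in Reg3b, Reg3g and Mptx1, and in 12.4% of 32851 promoters. On the gene's strand it began 29 bases before the start of Reg3b and 27 before that of Reg3g. On the opposite strand it lay 161 bases before the start of Reg3g and 82 and 198 before that of Mptx1. Reg4 and Mptx1 shared the run tataagagct, which began 31 and 29 bases before their starts. Its opening letters tataag differ from TATAAA in the last letter, so the exact search did not count them. That search therefore cannot show that the pairs differ in letters close to the TATA box near the start. The promoters of Reg3b and Reg3g also ended in the same 20 bases, acagtcatctctgtcctgac, the longest run shared by any pair of the 8 genes. TTCNNNGAA was found in Reg3b, 129 bases before the start, and in Ang4, 192 before it (7.02% of all promoters). AGATAA was found in Reg4, Mptx1 and Lypd8 (9.99% of all). For Lypd8, promoters at chr11:58378782-58379031 and chr11:58380396-58380645 were searched for motifs. The AGATAA match lay in the latter, and only the former entered the search for shared runs. TTTATG occurred in Reg3b alone (10.8% of all), TGTTTAC in Reg4 alone (3.17%) and CAAAGTCCA in none of the 8 (0.384%). A match describes the letters only.

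Control 1 carried 6 of the 10 genes above background, where 26% of all 22206 probe sets were. MBELN 3 carried 1 (23.1% of all), and control 2 (0.311%), control 3 (20.7%), MBELN 1 (27.7%) and MBELN 2 (14.3%) carried 0. Of the 60 values, 7 were above background. On control 1 the median of the 10 log2 values was 11.58, and on the others it lay between 4.57 on MBELN 2 and 5.38 on control 2. Around the threshold of control 1, at 8.14, Ang4 lay just inside at 10.06 and Reg3g just outside at 4.89. The genes thus fell into a set of 5 above background on control 1 alone, Pigr on control 1 and MBELN 3, and 4 on no array.

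**Figure D2:**
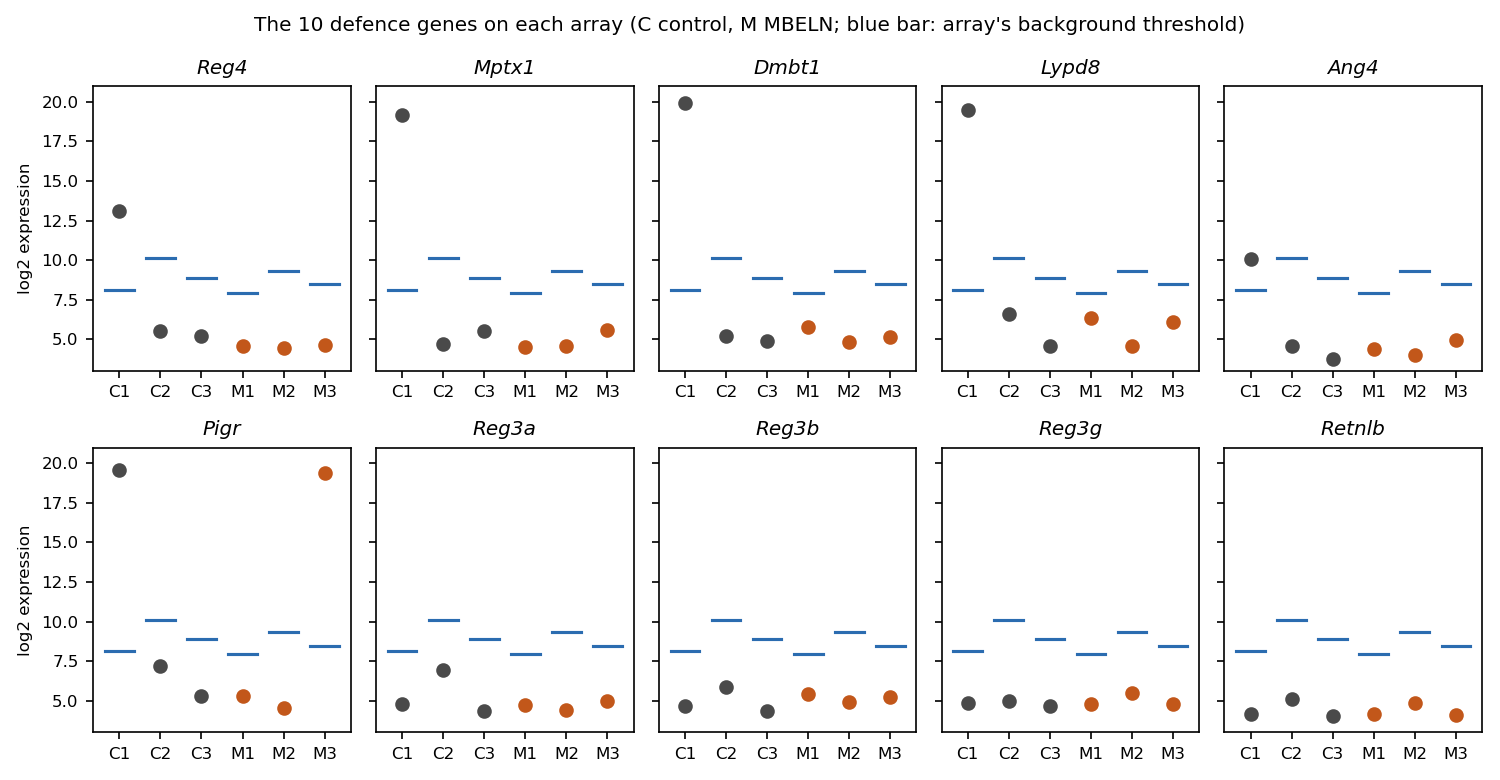
Log2 expression of each of the 10 defence genes on the 3 control (C, grey) and 3 MBELN (M, orange) arrays; each point is 1 array and each blue bar is that array's background threshold. Reg4, Mptx1, Dmbt1, Lypd8 and Ang4 stand above the bar on C1 alone, Pigr on C1 and M3, and the other 4 on no array.

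Dmbt1, a large secreted scavenger receptor that binds bacteria and mucins (probe set TC0700001914.mm.2, chromosome 7), was at 19.93 on control 1, 5.23 on control 2 and 4.90 on control 3. It was at 5.80, 4.81 and 5.12 on MBELN 1, 2 and 3. The value on control 1 is the highest in the table, which 24 probe sets share there within 0.001, so it is a lower limit. Control 1 was 11.79 log2 units over its threshold, and the 5 other arrays were below theirs.

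Mptx1, a mucosal pentraxin of the family of C-reactive protein (TC0100001646.mm.2, chromosome 1), was at 19.16 on control 1. It was at 4.73 and 5.51 on control 2 and 3, and at 4.50, 4.57 and 5.58 on the MBELN arrays. Control 1 was 11.02 log2 units over its threshold, and no other array was above background. The related gene Mptx2 was also above background on control 1 alone, at 13.84 against 3.92 to 5.47 elsewhere.

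Lypd8 (TC1100000689.mm.2, chromosome 11) was at 19.46 on control 1, 6.59 on control 2 and 4.59 on control 3. On the MBELN arrays it was at 6.35, 4.57 and 6.12. Only control 1 was above its threshold. The adjacent gene 1810065E05Rik was also above background on control 1 alone, at 8.39 against a threshold of 8.14 there. On the other arrays it was between 4.79 and 7.74. Lypd9, a neighbour that shares the family name, was above background on no array (4.35 to 5.14).

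Reg4, a secreted lectin that marks deep crypt secretory cells of the colon (TC0300000978.mm.2, chromosome 3), was at 13.10 on control 1, 5.52 on control 2 and 5.22 on control 3. It was at 4.58, 4.45 and 4.63 on the MBELN arrays. It was the only one of the 10 whose groups did not overlap. Of all probe sets, 3.26% were lower on all MBELN arrays than on all controls and 3.58% higher, against 1 and 0 of the 10 genes. For Reg4 the separation of control 2 and 3 from the MBELN arrays lay wholly below background.

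Ang4, a ribonuclease of the angiogenin family that kills bacteria and is made by Paneth and goblet cells (TC1400002015.mm.2, chromosome 14), was at 10.06 on control 1. It was at 4.58 and 3.77 on control 2 and 3, and at 4.41, 3.98 and 4.96 on the MBELN arrays. It exceeded the threshold of control 1 by 1.91 log2 units, against 4.96 for Reg4. With the 99th percentile of negative controls as the threshold, at 11.83 on control 1, Ang4 was no longer above background and the other 5 were. Of the Paneth cell markers, 1 of 11 was above background on control 1, Nupr1, a stress response gene, and the 5 measured defensins Defa17, Defa20, Defa21, Defa22 and Defa24 were above background on no array.

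By the values as measured, these 5 genes were each at least 4 log2 units higher on control 1 than on every other array, as were 1.21% of all probe sets. The values on the other arrays were below background, so the size of that gap is not known. Including Pigr, 6 of the 10 were highest on control 1 (11.9% of all). The choice of the genes used these values, so nothing is read from the difference.

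Pigr (TC0100001165.mm.2, chromosome 1) was at 19.60 on control 1, 7.20 on control 2 and 5.28 on control 3. Among the MBELN arrays it was at 5.29 and 4.52 on the first and second and at 19.36 on MBELN 3. The high values lay 11.46 and 10.89 log2 units above their thresholds and 0.24 apart, and the groups overlapped. Above background on these 2 arrays and on no other were 1 of the 10 genes and 1.06% of all probe sets.

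On MBELN 3 the whole hepatocyte list was above background, with Alb (albumin) and Fga (fibrinogen) each 11.46 log2 units over the threshold. Both stood at the highest value in the table, so these are lower limits. On control 1, 3 of the 15 hepatocyte genes were above background, Tat, Ttr and Apob, the last of which is also made by enterocytes. The list's summed linear signal, as log2, ran from 10.55 to 16.83 on control arrays and from 9.07 to 23.38 on MBELN arrays. The colonocyte list ran from 10.94 to 22.49 and from 10.74 to 15.71. The goblet cell genes Muc2, Clca1 and Zg16 were not above background on MBELN 3, at 5.33, 4.05 and 5.03. The part of hepatocyte and colonocyte genes in the values of Pigr was not tested.

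Neighbours of Pigr on chromosome 1 with related functions did not share its pattern. The IgA and IgM receptor genes Fcamr and Fcmr, adjacent on either side, were above background on no array (4.35 to 5.68 and 4.67 to 5.79), nor were the cytokine genes Il24 and Il20.

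Reg3a, Reg3b, Reg3g and Retnlb were above background on no array, as were 57.2% of all probe sets. Reg3a (TC0600000876.mm.2, chromosome 6) was at 4.79, 6.96 and 4.35 on control 1, 2 and 3 and at 4.75, 4.42 and 4.99 on the MBELN arrays. Reg3b (TC0600000875.mm.2) was at 4.64, 5.86 and 4.33 on the controls and at 5.45, 4.90 and 5.21 on the MBELN arrays. Reg3g (TC0600002539.mm.2) was at 4.89, 4.996 and 4.66 on the controls and at 4.79, 5.48 and 4.80 on the MBELN arrays.

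Retnlb (TC1600000697.mm.2, chromosome 16) was at 4.19, 5.13 and 4.01 on the controls and at 4.16, 4.84 and 4.13 on the MBELN arrays. On control 1, the array with colonocyte and goblet cell markers, the value minus the threshold ran from -3.96 (Retnlb) to -3.25 (Reg3g) for these 4 genes. Reg3a, Reg3b and Retnlb were highest on control 2, which had 0.311% of probe sets above background, and values below background have no order. Values below background do not show that a gene was absent.

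The RegIII genes lie side by side on chromosome 6 with Reg3d, Reg2 and Reg1. None of these 6 genes was above background on any array: Reg3d was between 4.41 and 7.11, Reg2 between 4.27 and 7.43, and Reg1 between 3.95 and 6.07. Beyond this cluster, the synaptic adhesion gene Lrrtm4 was at 15.30 on control 3 and between 4.53 and 6.47 elsewhere. Reg1 and Reg2 are made by pancreatic acinar cells. The acinar list had 2 of 16 genes above background on control 1, Zg16 and Cela1, which are also expressed in gut, and 0 elsewhere.

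Beside Retnlb on chromosome 16, Retnla, a resistin-like gene of macrophages and fat tissue, was above background on control 1 (9.76) and MBELN 1 (11.95). Retnlg was above background on no array. Over all genes, 51 neighbours that are not among the 10 were measured, 3 to each side of every gene where a probe set existed. Of these, 5 were above background on control 1, against 26% of all probe sets, and 41 on no array, against 57.2%.

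The comparison that the labels give is MBELN against control. In limma's test over all 22206 probe sets, 0 passed an adjusted p of 0.05 (0%), and the smallest adjusted p was 0.936. At an unadjusted p under 0.05 there were 422. The 10 genes are among these probe sets, but no p-value is given for them, since they were chosen on these values.

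Their mean was lower on MBELN arrays for 8 and higher for 2. The 2, Reg3b and Reg3g, and among the 8 Reg3a and Retnlb, were below background on every array. No direction is read from the signs of these genes. Dmbt1 had a control mean of 10.02 ± 8.58 (SD, n = 3) and an MBELN mean of 5.24 ± 0.51 (SD, n = 3), a difference of -4.78 log2 units. Mptx1 differed by -4.92, Lypd8 by -4.53, Reg4 by -3.39 and Ang4 by -1.69. Each of these differences was smaller than the SD of its control group, which ran from 3.42 for Ang4 to 8.58 for Dmbt1.

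Because these 5 genes were above background on control 1 alone, the differences use values below background on 5 arrays, and no fold is given for the groups. The level on control 1 can be set against a floor, the mean of the 3 MBELN thresholds. On control 1, Dmbt1 was 11.35 log2 units above that floor, Lypd8 10.88, Mptx1 10.58, Reg4 4.52 and Ang4 1.48. These are values of 1 array, with no replicate.

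For Pigr the control mean was 10.69 ± 7.77 (SD, n = 3) and the MBELN mean 9.72 ± 8.36 (SD, n = 3), a difference of -0.97 that was smaller than either SD. Reg3a differed by -0.65, Reg3b by 0.24, Reg3g by 0.17 and Retnlb by -0.06, all from values below background.

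The group differences of the genes above background rested on single arrays. Without control 1, the difference was 0.09 for Lypd8, 0.18 for Dmbt1, 0.28 for Ang4, -0.24 for Mptx1, -0.82 for Reg4 and 3.49 for Pigr. Without MBELN 3 the difference of Pigr was -5.79. Over the 10 genes the median difference was -1.33 with all arrays and 0.09 without control 1, beside -0.01 and 0.01 over all probe sets. No array but control 1 and, for Pigr, MBELN 3 held a value above background for any of the 10.

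**Figure D3:**
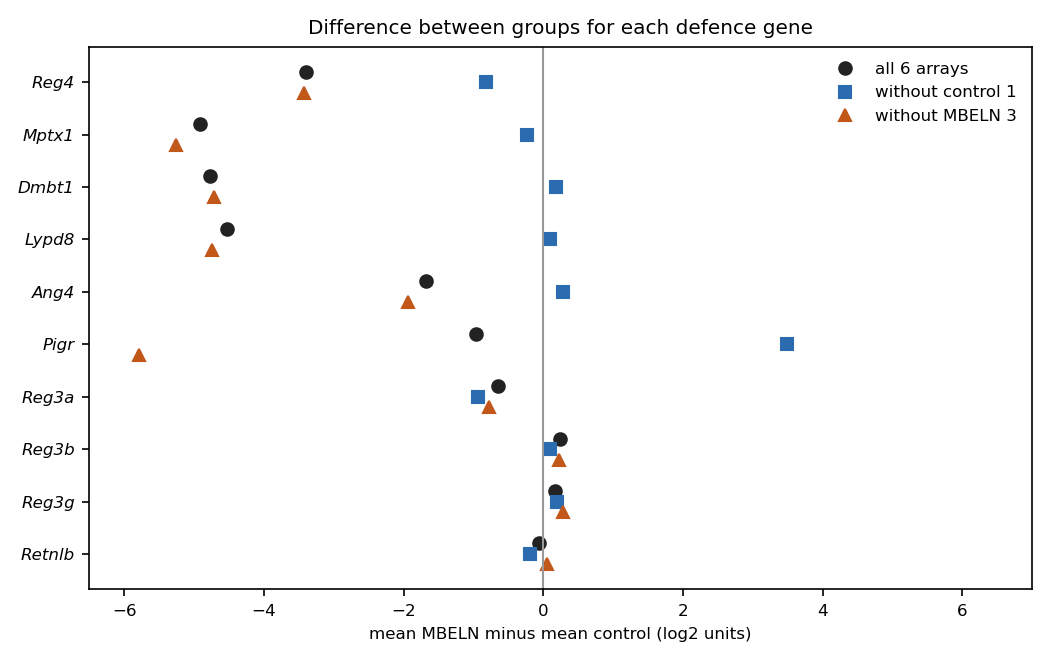
Mean log2 value on MBELN arrays minus mean on control arrays for each of the 10 defence genes, with all 6 arrays (circles), without control 1 (squares) and without MBELN 3 (triangles). Without control 1 the differences lie between -0.93 and 0.28 except for Pigr (3.49), which moves to -5.79 without MBELN 3.

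Genes around the 10 were taken from 5 lists: relatives, other epithelial antimicrobial proteins, upstream signals, IgA supply and epithelial transcription factors, with 112 genes measured. None passed limma's test in either direction (0 higher and 0 lower in each list), and 2 had an unadjusted p under 0.05, Lcn2 and Ahr. The median difference over the 112 genes was -0.16.

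Among 34 other antimicrobial and barrier genes, 18 were above background on control 1, 0 on control 2 and control 3, 5 on MBELN 1 and on MBELN 2, and 8 on MBELN 3. Control 1 alone carried 10 of them. Clca1 and Zg16, secreted by goblet cells with the mucin Muc2, were at 19.93 and 19.59 on control 1, against 6.73 and 5.47 at most elsewhere. Lgals4, a galectin of the colonic epithelium, was at 19.71 and at most 7.34. In this list 12 genes had a higher and 22 a lower mean on MBELN arrays, with a median difference of -0.38. It was 0.94 without control 1, 0.09 without control 2, -1.03 without control 3, 0.05 without MBELN 1 and -0.67 without MBELN 3.

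The 17 measured relatives of the 10 genes had 12 above background on no array and 2 on control 1, Mptx2 and Retnla. Their median difference was -0.17, with 7 higher and 10 lower, and it was 0.17 without control 2.

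Upstream, the receptor chain for interleukin 22, Il22ra1, was above background on control 1 alone, at 12.38 against 8.32 at most elsewhere. Its partner chain Il10rb was at 12.35 on control 1, 12.34 on MBELN 1 and 9.11 on MBELN 3, all above background, and the transducer Stat3 at 10.18, 9.85 and 9.78. The cytokine genes Il22, Il17a, Il13, Il4 and Ifng were above background on no array, with values on control 1 between 3.79 and 4.82. Il18, an epithelial cytokine, was highest on control 1 (15.20) and between 6.89 and 10.40 elsewhere, above background also on control 3, MBELN 2 and MBELN 3. Of the 30 signal genes, 11 were above background on control 1 and 10 each on MBELN 1 and MBELN 3. Of these genes 19 had a higher and 11 a lower mean on MBELN arrays, with a median difference of 0.63, which was 1.09 without control 1, 0.40 without control 2 and -0.07 without control 3.

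Of 14 measured genes for IgA supply, 3 were above background on control 1. Jchain, which joins IgA into the dimers that Pigr carries, was at 12.57 there and at most 6.90 elsewhere, and Ccl28, which draws IgA plasma cells to the colon, at 10.85 and at most 7.23. On MBELN 3, the other array with high Pigr, Jchain at 6.90 and Ccl28 at 5.30 were below background. Xbp1, a secretory stress factor, was above background on every array but control 2. By mean, 6 genes were higher and 8 lower on MBELN arrays, with a median difference of -0.22, which was -0.12 without control 1, 0.15 without control 2 and -0.41 without control 3.

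Of 17 measured epithelial transcription factors, 8 were above background on control 1. Klf5, a crypt factor, was at 15.57 on control 1 and 11.95 on MBELN 2, and above background on these arrays only. Vdr, the vitamin D receptor, was at 12.62 on control 1 and above background there alone. Hnf4a, a factor of gut and liver epithelium, was at 13.97 on control 1 and 13.83 on MBELN 3, and between 4.08 and 6.71 on the other 4 arrays, where Pigr was also low. Cdx1 and Cdx2, intestinal caudal factors, were above background on no array (7.56 and 5.07 on control 1). By mean, 5 were higher and 12 lower on MBELN arrays, with a median difference of -0.89, which was 0.45 without control 1, -1.38 without control 2 and -1.91 without control 3.

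**Figure D4:**
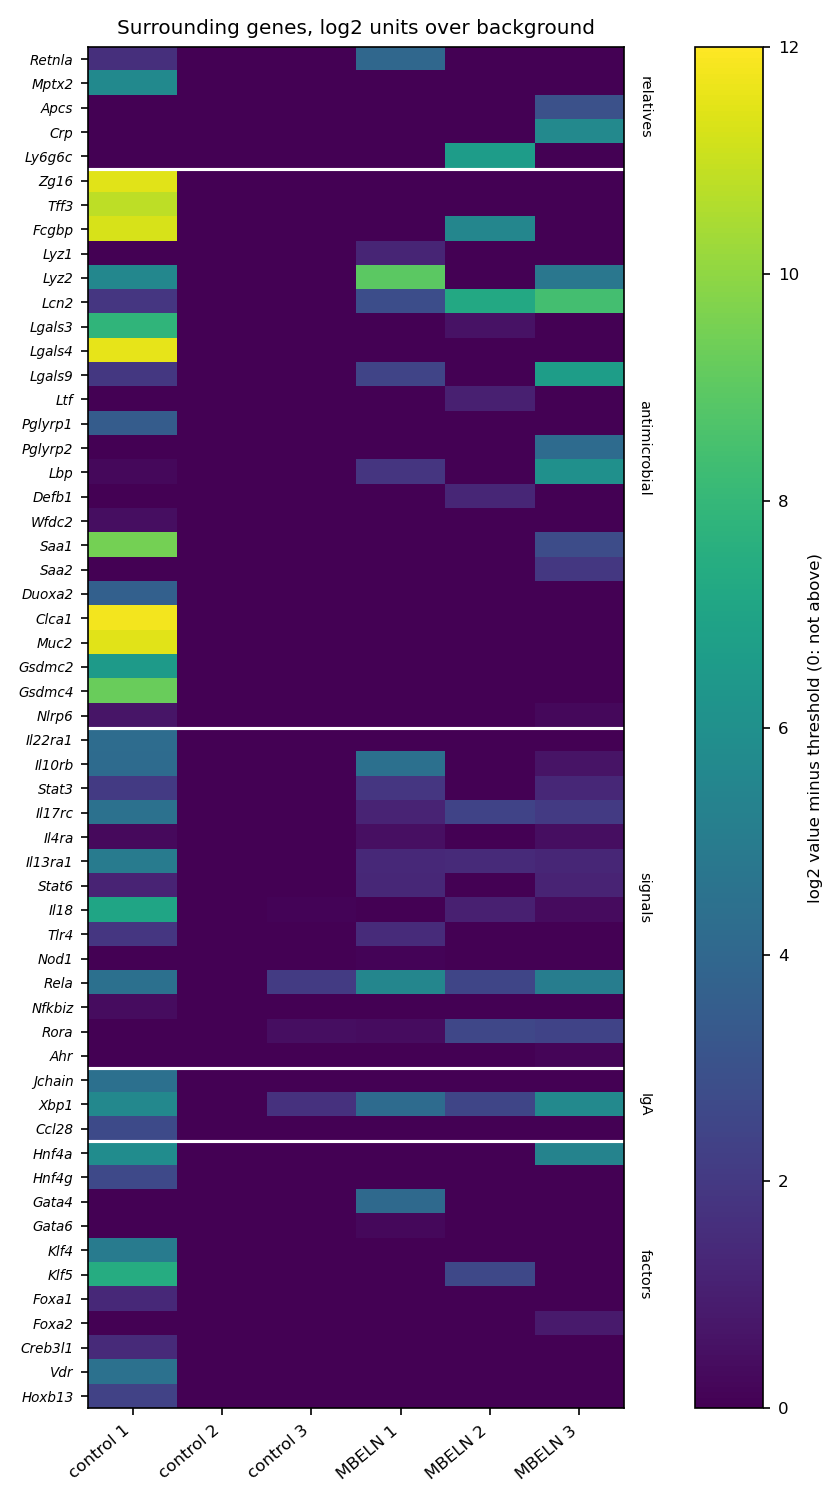
Log2 value minus the array's background threshold for the genes of the 5 lists that were above background on at least 1 array (rows, in list order, split by white lines) on each array (columns); darkest means not above background. Control 2 has none, and rows such as Hnf4a show signal on control 1 and MBELN 3.

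The genes with the most similar pattern were found by the root mean square difference of log2 profiles over the 6 arrays, each centred on its own mean, among 8659 other genes above background somewhere. For Dmbt1 the nearest were Zg16 (0.26), the adhesion protein gene Cdh17 (0.41) and Sycn (0.48). For Mptx1 they were Cdh17 (0.46), Zg16 (0.57) and Dmbt1 (0.67), and for Lypd8 the membrane mucin gene Muc13 (0.64), Zg16 (0.69) and Dmbt1 (0.70).

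Reg4 was nearest to Slc9a2 (0.27), Glod5 (0.28) and Ppp1r14d (0.31), and Ang4 to Naip5 (0.23), Rep15 (0.24) and Cdc42ep5 (0.28). All of the genes named as near to these 5 were above background on control 1 alone. Pigr had no such close match: Apob, the structural apolipoprotein of gut and liver, differed by 1.58, the glucuronosyltransferase gene Ugt2b34 by 1.71 and the sulfotransferase gene Sult1d1 by 2.18, and all 3 were above background on control 1 and MBELN 3. The measure rests on 6 arrays, and for these profiles mainly on the 1 or 2 that were high. Patterns of the 4 genes below background are not given.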

How the data were processed

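The deposited table holds 28846 rows of log2 values for 6 arrays, 3.53 to 19.93 for the probe sets tested; log2 was inferred from the highest value, which equals log2 of 1000000. Per the submitters' processing notes, Transcriptome Analysis Console 4.0 was used; how signals were summarised and normalised is not stated in the sources used here. The number of arrays limits the precision. Values were used as deposited, without 6640 control rows. Of 22206 probe sets, 19572 have 1 symbol in the platform annotation, 0 several and 2634 none; the one with the highest mean stood for a gene. Entrez numbers of all 10 genes matched the reference table.

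Groups were compared with limma 3.58.1 (lmFit, eBayes) in R 4.3.3, with p-values adjusted by Benjamini-Hochberg, on code tested on simulated data. Python 3.11.15, numpy 2.4.6, pandas 2.3.3 and matplotlib 3.10.9 made summaries and plots. Alternatives were a replicate block, other normalisations, filters, thresholds and priors, array weights, and leaving out each array; leaving arrays out list by list was added after the data were seen.

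The 10 genes and the lists were chosen with earlier results of these data known. Besides the 10, the text names genome neighbours, the 3 nearest patterns per gene and the list genes farthest above the threshold. Il22ra1, Stat3, the cytokines, Cdx1, Cdx2, the defensins, Ahr, Fcgbp, Ltf and Defb1 were named after their values were seen. So were the neutrophil and macrophage markers above background on no array. Correlations over probe sets between arrays of the same replicate number were 0.11, 0.12 and -0.05. Between arrays of unlike number they ran from -0.18 to 0.10. On arrays with such unlike tissue markers, these values cannot show whether samples were paired. The labels state no pairing, and none was assumed.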

Additional observations from a re-analysis of the deposited data

How the results depend on the processing

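Limma called 0 probe sets with the replicate number as a replicate block (624 at an unadjusted p under 0.05), after quantile normalisation (464), with equal medians (420), a filter at the median (197), a trend with robust prior (297), array weights (723) and without each array in turn (0 to 0 called, 296 to 1380 unadjusted). The median difference of the 10 genes was -1.33 under the replicate block, which cannot change it because each block holds an array of either group. It was -1.36 after quantile normalisation and -1.21 with equal medians. The median difference ran from -3.27 to 0.09 when single arrays were left out, 0.09 being without control 1. That of the 112 surrounding genes ran from -0.49 (without control 3) to 0.46 (without control 1), turning from -0.16 also without control 2 (0.18) and MBELN 1 (0.02). Averaging probe sets of a gene left the medians as they were. For the 10 genes, with 1 probe set each, it could not change them. On control 1, 6 of the 10 genes were above background with the 90th percentile of negative controls and after quantile normalisation, and 5 with the 99th, without Ang4. Without control 1 the sign turned for Lypd8, Ang4, Pigr and Dmbt1, and for Pigr also without MBELN 1 (1.25) or MBELN 2 (1.63). With 3 arrays per group, of which single ones carry the signal, treatment and array cannot be told apart for these genes.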

Other observations

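Other genes of the surrounding lists were above background on arrays where the 10 genes, Pigr on MBELN 3 aside, were below it. On MBELN 2, the array with squamous and skeletal muscle markers, Ly6g6c, a relative of Lypd8 in the Ly6 family, was at 15.98 and at most 5.55 elsewhere. The mucin-binding protein gene Fcgbp was at 14.84 there and at 19.43 on control 1. Ltf (lactoferrin) and the beta-defensin gene Defb1 were above background on MBELN 2 alone, at 10.41 and 10.63. Both lay below the 99th percentile of negative controls on MBELN 2, at 14.58.

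Plasma pentraxins of the family of Mptx1 were above background on MBELN 3 alone, Crp at 14.10 and Apcs at 11.43. Apcs lay below the 99th percentile of negative controls on MBELN 3, at 12.15. Mptx1 and Mptx2 were above background on control 1 alone. Lcn2, a siderophore-binding protein, was at 16.56 on MBELN 2 and 16.88 on MBELN 3, against 10.04 on control 1. Lyz2, a lysozyme of myeloid cells, was highest on MBELN 1 (16.89). Of the 14 neutrophil and macrophage markers, 5 were above background on each of control 1, MBELN 1 and MBELN 3. These were the macrophage genes Csf1r, C1qa, C1qb, C1qc and Mrc1. The 8 above it on no array were S100a8, S100a9, Retnlg, Camp, Ngp, Csf3r, Cxcr2 and the macrophage gene Adgre1. None of these genes passed the adjusted test between groups in limma.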
